A study of Mus musculus with 10 samples.

Results

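The interferon response genes described here are 9 genes named by symbol: the signalling and transcription factor genes Stat2, Irf9 and Irf7, and the effector genes Ifit1, Ifit3, Isg15, Ifitm3, Bst2 and Oasl2. They were taken from 53379 Ensembl genes counted in 10 RNA-seq libraries, and all 9 were among the 19754 genes with enough counts to be tested. The libraries came from the microdissected hippocampus of male mice aged 5 weeks, in which cells active during an experience were labelled with EYFP from AAV9 vectors (adeno-associated virus, serotype 9) under a c-Fos promoter and doxycycline control, dissociated and sorted for EYFP. There were 2 aversive libraries (4 foot shocks of 1.5 mA, each lasting 2 s), 2 appetitive libraries (1 h with a female by the labels, longer by the methods), 3 neutral libraries (the conditioning cage with neither stimulus) and 3 mock libraries (mice left in the home cage). All 4 groups carry the same label of the ChR2-YFP construct, yet the methods call mock untagged and made from 2 mice. Whether the mock mice received the vectors is not given in the sources used here, so a comparison with mock is a comparison with home-cage sorted material and not with virus-free tissue.

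Cells that sense viral nucleic acid secrete interferons. Type I interferons bind the receptor pair Ifnar1 and Ifnar2, whose kinases Jak1 and Tyk2 phosphorylate Stat2. Stat2 joins Irf9 and binds a short DNA element, the interferon-stimulated response element (ISRE), upstream of many antiviral genes, and Irf7 amplifies the response by driving more interferon. The effectors act on viruses directly: the Ifit proteins bind foreign RNA, Isg15 is a ubiquitin-like modifier, Ifitm3 blocks fusion of virus and cell membranes, Bst2 (tetherin) holds budding virions at the cell surface, and Oasl2 belongs to the oligoadenylate synthetase family. In brain, endothelium and microglia respond readily to interferon.

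The promoter sequences show which of the 9 genes carry the ISRE letters near their start. The motif searched was GAAANNGAAA, on both strands, in windows from 250 bases before to 50 bases after each RefSeq transcript start (GRCm38.p6). It was found for 6 of the 9 genes (66.7%) and for 18 of the 37 other listed interferon-stimulated genes that had a window (48.6%). Among promoter windows of all genes it was found in 1131 of 32851 (3.44%). The first 2 shares count a gene with a match in any of its windows, and the last counts single windows. The stretches below are written 5′ to 3′ on the strand of the gene, with ISRE matches in capitals. The first 5 are shown because they hold a match upstream of the start.
Stat2 (chr10:128270261-128270300, plus strand): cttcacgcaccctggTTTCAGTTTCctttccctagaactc
Ifit1 (chr19:34640789-34640828, plus strand): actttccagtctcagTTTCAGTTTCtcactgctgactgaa
Ifit3 (chr19:34583392-34583431, plus strand): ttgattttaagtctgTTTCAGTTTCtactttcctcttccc
Isg15 (chr4:156200860-156200899, minus strand): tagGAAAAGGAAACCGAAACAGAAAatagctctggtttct
Bst2 (chr8:71537572-71537611, minus strand): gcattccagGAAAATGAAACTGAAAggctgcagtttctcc
In Isg15 the capitals hold 3 overlapping matches and in Bst2 they hold 2, while Stat2, Ifit1 and Ifit3 carry the same 10 letters in the other orientation. Ifit1 and Ifit3 each had 1 further match upstream, and the 2 matches of Ifitm3 lay just after its start. The GAS motif (interferon-gamma activated site, letters TTCNNNGAA) was found for Ifitm3 and Bst2, overlapping an ISRE match in both, and in 8.3% of all windows. The next 3 stretches, the 60 bases before the start, belong to the genes whose windows held no match.
Irf9, first of its 2 starts (chr14:55603925-55603984, plus strand): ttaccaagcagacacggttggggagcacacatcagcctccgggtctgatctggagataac
Irf7 (chr7:141266425-141266484, minus strand): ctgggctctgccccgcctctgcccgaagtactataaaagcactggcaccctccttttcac
Oasl2 (chr5:114896874-114896933, plus strand): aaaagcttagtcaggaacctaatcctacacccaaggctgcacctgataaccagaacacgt
These 3 genes are also the ones with at most 10 counts in both appetitive libraries, as described below. Genes with a match were also low in 1 appetitive library: Stat2 at 2 counts in replicate 1, Ifit1 and Isg15 at 1 count in replicate 2. Of all tested genes, 63.9% and 54.2% had at most 10 counts in appetitive replicates 1 and 2. The share this low in both libraries was not computed. A link between motif and level was not tested. A match is only a run of letters, and the lack of one says only that those letters are not in this window.

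**Figure D1:**
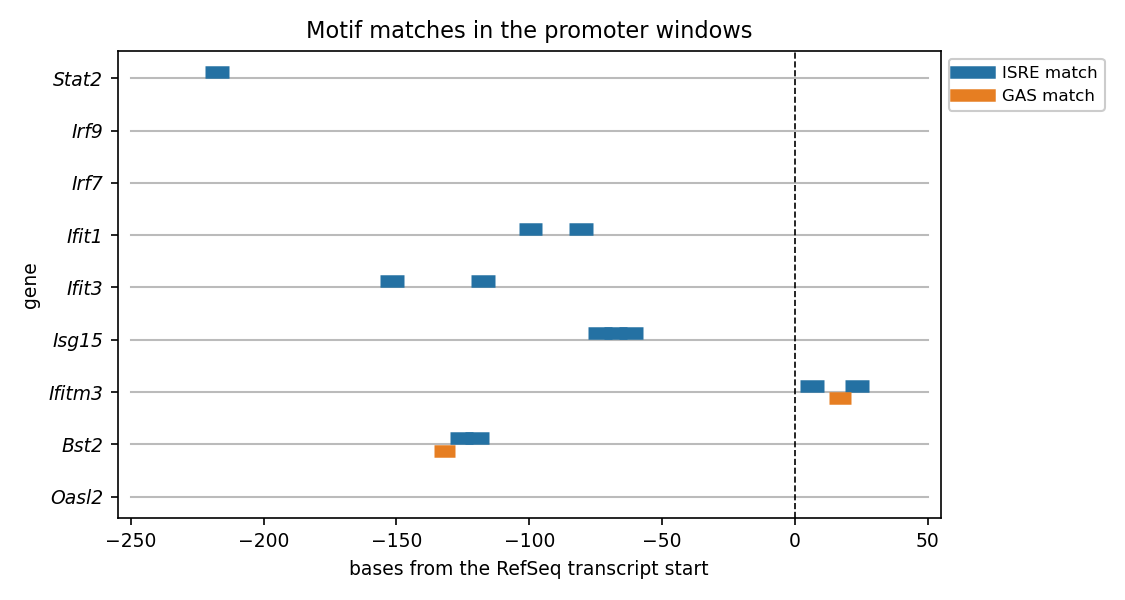
Positions of ISRE (blue) and GAS (orange) matches, in bases from the RefSeq transcript start (dashed line), for the 9 genes. Grey lines are the windows searched. Matches of Stat2, Ifit1, Ifit3, Isg15 and Bst2 lie before the start, those of Ifitm3 after it, and Irf9, Irf7 and Oasl2 have none. The window of the first Irf9 start stands for both.

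Total counts per library ran from 16968588 to 67650693, and levels are given as normalized CPM (counts scaled to library size and TMM factor). The libraries of a group differed widely: Spearman's rho between libraries of a group over the tested genes was 0.606 in appetitive, 0.637 in aversive, 0.766 to 0.864 in neutral and 0.91 to 0.922 in mock. The appetitive libraries stood apart, with 56.6% and 48.9% of the tested genes at 3 counts or fewer, compared with 2.09% to 39.6% in the other libraries. Summed CPM of 8 neuron markers was 74.7 to 1248, below the 7438 to 802074 of 6 oligodendrocyte markers in every library. Among the libraries, the neuron sum was highest in appetitive replicate 1 and lowest in the 3 neutral libraries. The neutral libraries carried another kit name, another sequencer and a longer read length than all others. Kit, sequencer and read length therefore cannot be told apart from experience in any comparison with neutral. By the methods, mapping used only the first 40 bases of each read. By the methods 8 mice were pooled per condition, but mock was made from 2 mice. The sources do not tie each library to its own pool or mouse. If mock came from 2 mice in all, its 3 libraries cannot each come from a separate mouse. P-values therefore measure the spread between libraries, which may be technical. In bulk RNA, fewer cells of a type and less RNA per cell cannot be told apart.

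None of the 9 genes differed between any pair of groups at an adjusted p under 0.05 in edgeR's quasi-likelihood test, in 6 comparisons. Irf9, Irf7 and Oasl2 nevertheless stood close to 0, at 10 counts or fewer, in both appetitive libraries, where 63.9% and 54.2% of tested genes were this low. DESeq2 called these same 3 of the 9 genes lower in appetitive against mock, neutral and aversive. Of the tested genes with a DESeq2 adjusted p it called 26.6%, 31.3% and 23.3% there, so 3 of 9 lay near the general share. Ifit3 had the opposite order, with both appetitive libraries above every other library, and Bst2 was highest in the 3 neutral libraries. Ifit1, Isg15 and Ifitm3 overlapped between the groups in every comparison.

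**Figure D2:**
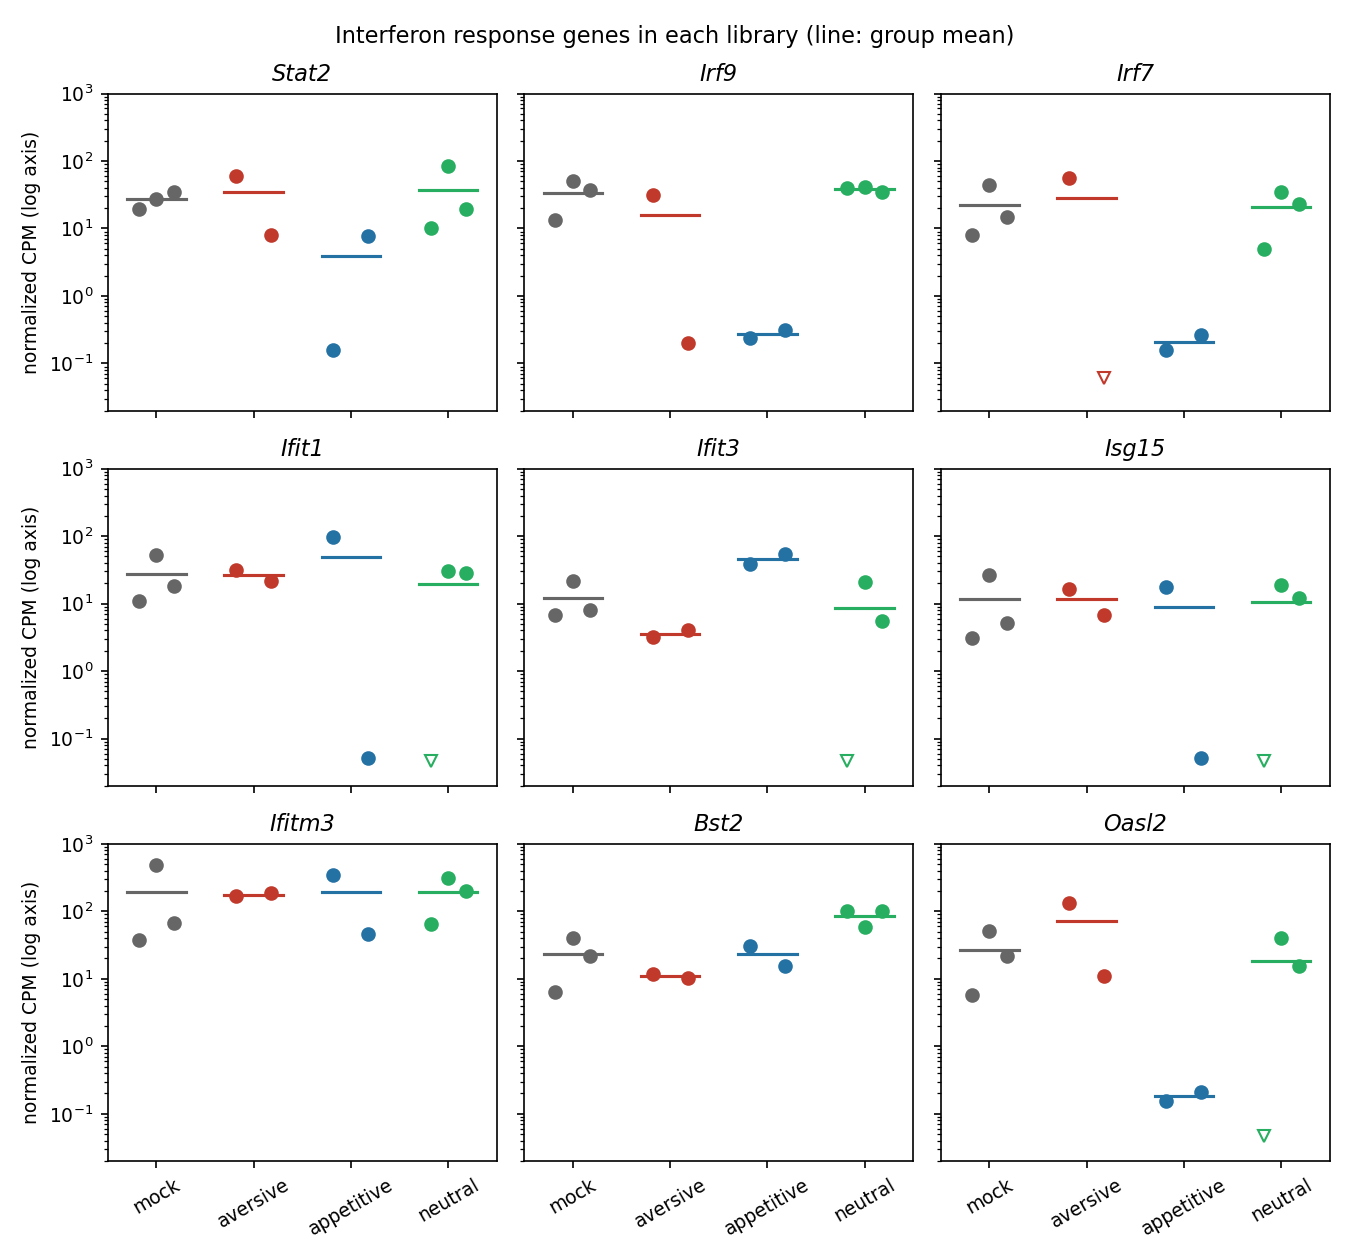
Normalized CPM (log axis) of the 9 genes, 1 point per library, by group, with a line at the group mean. Open triangles are libraries with 0 counts, drawn at the level of 3 counts. Irf9, Irf7 and Oasl2 lie at or below 0.314 CPM in both appetitive libraries, and Bst2 lies at 57.7 CPM or higher in the neutral libraries and at 40.7 CPM or lower elsewhere.

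Stat2 (chr10:128270559-128292849, plus strand), the transcription factor that carries the signal from the type I receptor, was at 19.7, 26.9 and 35.3 CPM in the mock libraries and at 60.2 and 8.14 CPM in the aversive libraries. It was at 0.156 and 7.70 CPM in the appetitive libraries and at 10.1, 83.3 and 19.5 CPM in the neutral libraries. Both appetitive libraries lay below every library of the other groups, although aversive replicate 3 was only just higher. Group means ran from neutral (37.6 ± 39.8 CPM, SD, n = 3) through aversive (34.2 ± 36.8, n = 2) and mock (27.3 ± 7.77, n = 3) to appetitive (3.93 ± 5.33, n = 2). The fitted log2 fold change of appetitive against mock was -2.79 (SE 1.66, edgeR adjusted p = 0.3), and against neutral and aversive it was -3.26 and -3.12 (edgeR adjusted p = 0.217 and 0.346). Stat2 therefore did not pass the test against any group.

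Irf9 (chr14:55603571-55610030, plus strand), the DNA-binding partner of Stat2, was at 13.2, 51.3 and 37.7 CPM in mock and at 40.0, 40.8 and 34.9 CPM in neutral. In the aversive libraries it was at 31.4 and 0.200 CPM. In the appetitive libraries it was at 0.235 and 0.314 CPM, which is 3 and 6 counts. Both appetitive libraries lay below all mock and neutral libraries, and aversive replicate 3, with 10 counts, lay with them and not with its own replicate. The log2 fold change of appetitive against mock was -6.93 (SE 2.03, edgeR adjusted p = 0.0933, DESeq2 adjusted p = 0.000209). Against neutral it was -7.11 (SE 2.05, edgeR adjusted p = 0.0605, DESeq2 adjusted p = 0.000108), the smallest edgeR adjusted p of any of the 9 genes. The Irf9 exons overlap those of Rnf31 on the same strand, and reads from the shared bases cannot be assigned to one gene.

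Irf7 (chr7:141262706-141266481, minus strand), the amplifier of interferon production, was at 8.08, 44.3 and 14.9 CPM in mock and at 4.98, 35.0 and 22.7 CPM in neutral. The aversive libraries held 55.8 CPM and 0 counts, the latter allowing a level of up to 0.0601 CPM at 3 counts. The appetitive libraries held 0.156 and 0.262 CPM, from 2 and 5 counts. Both lay below all mock and neutral libraries and between the 2 aversive ones. The log2 fold change of appetitive against mock was -6.71 (SE 2.76, edgeR adjusted p = 0.181, DESeq2 adjusted p = 0.00983), and against neutral -6.61 (edgeR adjusted p = 0.143). Irf7 shares exon bases with Phrf1 on the other strand, and the counting ignored strand.

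Oasl2 (chr5:114896936-114912234, plus strand), an interferon-induced member of the synthetase family, was at 5.73, 51.9 and 21.7 CPM in mock and at 131 and 11.1 CPM in the aversive libraries. In the appetitive libraries it was at 0.156 and 0.210 CPM, from 2 and 4 counts. The neutral libraries held 0, 40.4 and 15.5 CPM, so neutral replicate 1, where 0 counts allow up to 0.0473 CPM, lay below the appetitive libraries. The appetitive libraries lay below all mock and all aversive libraries. The log2 fold change of appetitive against mock was -7.14 (SE 2.82, edgeR adjusted p = 0.171, DESeq2 adjusted p = 0.00704). Against aversive it was -8.57 (SE 3.04, edgeR adjusted p = 0.167, DESeq2 adjusted p = 0.0021).

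Between appetitive and aversive, the values of Irf9 and Irf7 depended on which aversive library was used. With all libraries, their log2 fold changes were -5.83 and -7.03 (edgeR adjusted p = 0.154 and 0.21). Without aversive replicate 3, edgeR called both lower in appetitive, and without aversive replicate 1 the fitted values were 0.35 for Irf9 and 6.23 for Irf7, in the other direction.

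Ifit1 (chr19:34640871-34650009, plus strand), which binds RNA lacking the cap marks of the host, was at 10.8, 52.4 and 18.1 CPM in mock and at 32.0 and 21.3 CPM in aversive. The 2 appetitive libraries lay at opposite ends, at 97.7 and 0.0524 CPM, the latter a single count. The neutral libraries held 0, 30.3 and 28.7 CPM. The groups overlapped in all 6 comparisons, and the log2 fold change of appetitive against mock was 0.85 (SE 2.23, edgeR adjusted p = 0.832). Its sign rested on appetitive replicate 1, without which it was -9.14, and it turned to -0.26 with scaling by library size alone. Isg15 (chr4:156199424-156200818, minus strand) had the same arrangement at lower levels, with 17.8 and 0.0524 CPM in appetitive and 0, 19.0 and 12.2 CPM in neutral. It was at 3.11, 26.7 and 5.21 CPM in mock and at 16.7 and 6.75 CPM in aversive. Ifit1, Isg15, Ifit3 and Oasl2 were all at 0 counts in neutral replicate 1, although 4105 counts of Ifitm3 and 6329 counts of Bst2 were read in that library.

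Ifit3 (chr19:34583531-34588731, plus strand), a partner of Ifit1 in RNA binding, was at 38.8 and 53.9 CPM in the appetitive libraries. It was at 6.81, 21.4 and 8.02 CPM in mock, at 3.15 and 4.05 CPM in aversive and at 0, 20.8 and 5.47 CPM in neutral. Both appetitive libraries lay above all 8 others, and both aversive libraries lay below all mock libraries. Means ran from appetitive (46.4 ± 10.7 CPM, SD, n = 2) through mock (12.1 ± 8.07, n = 3) and neutral (8.77 ± 10.8, n = 3) to aversive (3.60 ± 0.633, n = 2). The log2 fold change of appetitive was 1.94 against mock, 2.40 against neutral and 3.69 against aversive (edgeR adjusted p = 0.502, 0.383 and 0.393). The other neighbours in this order did not pass either, with an edgeR adjusted p of 0.966 for neutral against mock and 0.773 for aversive against neutral. Of its 40-base windows, 56.2% also occur in other genes, mainly its near copy Ifit3b, and the level of Ifit3 is uncertain for that reason.

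Ifitm3 (chr7:141009586-141010770, minus strand) had the highest mean level of the 9 genes in every group, with 37.3, 480 and 67.2 CPM in mock and 64.8, 316 and 200 CPM in neutral. Within single libraries, Bst2 was higher in neutral replicate 1 and Ifit3 in appetitive replicate 2. Ifitm3 was at 166 and 185 CPM in the aversive libraries and at 342 and 46.2 CPM in the appetitive libraries. Its group means were nearly level, from 176 ± 12.9 CPM in aversive (SD, n = 2) to 195 ± 247 CPM in mock (n = 3), with the spread inside mock larger than any difference between groups. Per kilobase of exon the mean level of Ifitm3 was 259 CPM in aversive, 286 in neutral and 287 in both mock and appetitive, the highest of the 9 genes in each group. Next came Bst2 in mock and neutral (25.4 and 95.7 CPM per kilobase), Isg15 in aversive (15.5) and Ifit3 in appetitive (26.6). Some 14.7% of the 40-base windows of Ifitm3 also occur in other genes, mainly Gm7676 and Ifitm2.

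Bst2 (chr8:71534255-71537456, minus strand) was at 99.8, 57.7 and 102 CPM in neutral. It was at 6.45, 40.7 and 21.7 CPM in mock, at 11.6 and 10.2 CPM in aversive and at 30.3 and 15.6 CPM in appetitive. All neutral libraries lay above all others. The log2 fold change of neutral against mock was 1.91 (SE 0.883, edgeR adjusted p = 0.381). That of aversive against neutral was -2.99 (SE 1.09, edgeR adjusted p = 0.195), and DESeq2 called it (adjusted p = 0.0237). The value of appetitive against neutral was -1.91 (SE 1.03, edgeR adjusted p = 0.227). None of its 40-base windows occurs unchanged in the annotated transcripts of another gene, but the kit difference of the neutral libraries stands beside each of these values.

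Set beside all tested genes, the counts for the 9 genes were as follows. Each DESeq2 share is of the tested genes with a DESeq2 adjusted p, which numbered 16648 to 18756 by comparison. For aversive against mock, edgeR called 0 of 9 (0% of all tested genes), 0 of 9 had an unadjusted p under 0.05 (9.96% of all) and DESeq2 called 0 (8.14%). In that comparison 1 gene, Ifit3, had both aversive libraries below all mock libraries, as did 24.7% of tested genes. For neutral against mock, edgeR called 0 of 9 (0.0861%), 0 had an unadjusted p under 0.05 (13.5%), DESeq2 called 0 (8.11%), and Bst2 alone lay above mock without overlap (16.0%). For aversive against neutral, edgeR called 0 of 9 (0.0405%), while 1, Bst2, had an unadjusted p under 0.05 (19.1%) and was called by DESeq2 (16.8%). There Irf9 and Bst2 lay below neutral without overlap (19.3%). In these 3 comparisons the share of the 9 genes was below or close to that of all genes.

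For appetitive against mock, edgeR called 0 of 9 (1.98% of all tested genes). The 3 genes Irf9, Irf7 and Oasl2 had an unadjusted p under 0.05 (23.8%) and were called by DESeq2 (26.6%), all lower in appetitive. In that comparison 4 genes, these 3 and Stat2, lay below mock without overlap (38.9%) and 1, Ifit3, above it (9.78%). For appetitive against neutral, edgeR called 0 of 9 (6.17%), and the same 3 genes had an unadjusted p under 0.05 (29.3%) and were called by DESeq2 (31.3%). Stat2, Irf9, Irf7 and Bst2 lay below neutral without overlap (27.2%) and Ifit3 above it (11.4%). For appetitive against aversive, edgeR called 0 of 9 (1.80%), and again the same 3 genes had an unadjusted p under 0.05 (20.0%) and were called by DESeq2 (23.3%). Stat2 and Oasl2 lay below aversive without overlap (20.1%) and Ifit3 and Bst2 above it (8.34%). In each comparison the 3 DESeq2 calls among 9 genes lay near the share of all genes. These 3 comparisons share the appetitive libraries, so their counts repeat 1 pair of libraries.

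The median log2 fold change of the 9 genes against mock was -0.03 in aversive, -0.39 in appetitive and -0.10 in neutral. Over all tested genes it was -0.13, -1.45 and 0.08. The appetitive median of the 9 genes thus lay nearer to 0 than that of all genes. Against neutral, the median was -0.14 in aversive and -1.91 in appetitive (all tested genes -0.15 and -0.91), and between appetitive and aversive it was -0.40 (all tested genes -0.48).

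**Figure D3:**
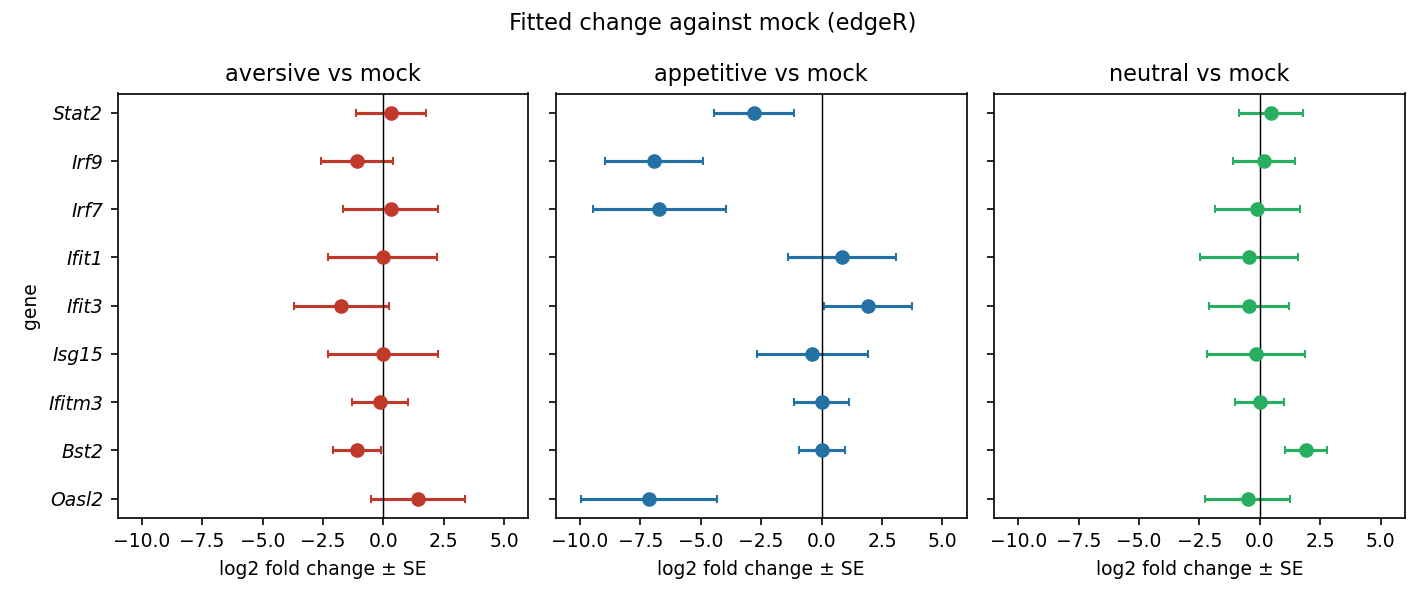
Log2 fold change of each of the 9 genes against mock, with its SE (edgeR, fit to all 10 libraries), for the aversive, appetitive and neutral groups. In the appetitive panel Irf9, Irf7 and Oasl2 lie between -7.14 and -6.71, whereas in the aversive panel all 9 genes lie between -1.74 and 1.43.

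Levels near 0 were found in 4 of the 10 libraries. Of the 9 genes, 4 had at most 10 counts in appetitive replicate 1 (Stat2, Irf9, Irf7 and Oasl2), 5 in appetitive replicate 2 (Irf9, Irf7, Ifit1, Isg15 and Oasl2), 4 in neutral replicate 1 (Ifit1, Ifit3, Isg15 and Oasl2) and 2 in aversive replicate 3 (Irf9 and Irf7). None had so few in the other 6 libraries. Of all tested genes, 63.9%, 54.2%, 26.8% and 28.1% were this low in those 4 libraries, and 5.78% to 46.8% in the other 6, with the highest share of the 6 in aversive replicate 1. The mean over the 9 genes of log2(CPM + 0.5) was highest in mock replicate 2 (5.65) and neutral replicate 2 (5.56) and lowest in appetitive replicate 2 (1.72) and neutral replicate 1 (2.21). Across the 10 libraries, Oasl2 followed this mean most closely (Pearson r = 0.88), followed by Irf7 (0.85) and Isg15 (0.82), and Bst2 (0.23) and Ifit3 (0.12) followed it least. These r values describe 10 libraries that differ in depth and cell content, and each gene is part of the mean.

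The 5 tested genes outside the 9 whose levels were most like this mean were Tgtp2 and Ifi47 (r = 0.96 each), both interferon-inducible GTPases, Gimap1 (0.95), a GTPase of lymphocytes, Slco1a4 (0.94), an organic anion transporter of brain endothelium, and Spaar (0.94). Slco1a4 is 1 of the 9 endothelial markers used here, so their sum holds a gene named for its likeness to this mean. The summed CPM of these markers was 784, 4216 and 2178 in mock and 132, 3666 and 1805 in neutral. It was 1719 and 217 in the appetitive libraries and 1335 and 1143 in the aversive libraries. Mock replicate 2 and neutral replicate 2 were thus highest in both the endothelial markers and the interferon genes, and neutral replicate 1 and appetitive replicate 2 lowest in both. Appetitive replicate 1 departed from this order, with 1719 CPM of endothelial markers and at most 3 counts each of Stat2, Irf9, Irf7 and Oasl2. Both aversive libraries departed too. The mean of the 9 genes was 5.08 in aversive replicate 1, above mock replicate 3 (4.36) and neutral replicate 3 (4.83), which held more endothelial markers. It was 2.84 in aversive replicate 3, below mock replicate 1 (3.35), which held fewer. All 9 endothelial markers were detected in every library except neutral replicate 1, where Pecam1 and Cdh5 were at 0. Summed CPM of 10 microglia markers was 42 to 452 in neutral, the group in which Bst2 was highest, 1100 to 4181 in appetitive, 1687 to 10454 in mock and 2692 to 7393 in aversive. Summed CPM of 4 choroid plexus markers was 132795, 21617 and 96959 in neutral and 849 to 13755 in the other libraries, and was thus also highest in the group with the highest Bst2. Of 6 astrocyte markers it was 52.4 to 204 in neutral and 2261 to 9210 elsewhere, and of 8 border macrophage and blood leukocyte markers 0.568 to 31.8 in neutral and 53.5 to 418 elsewhere. The part of any of these cell types in the results was not tested.

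**Figure D4:**
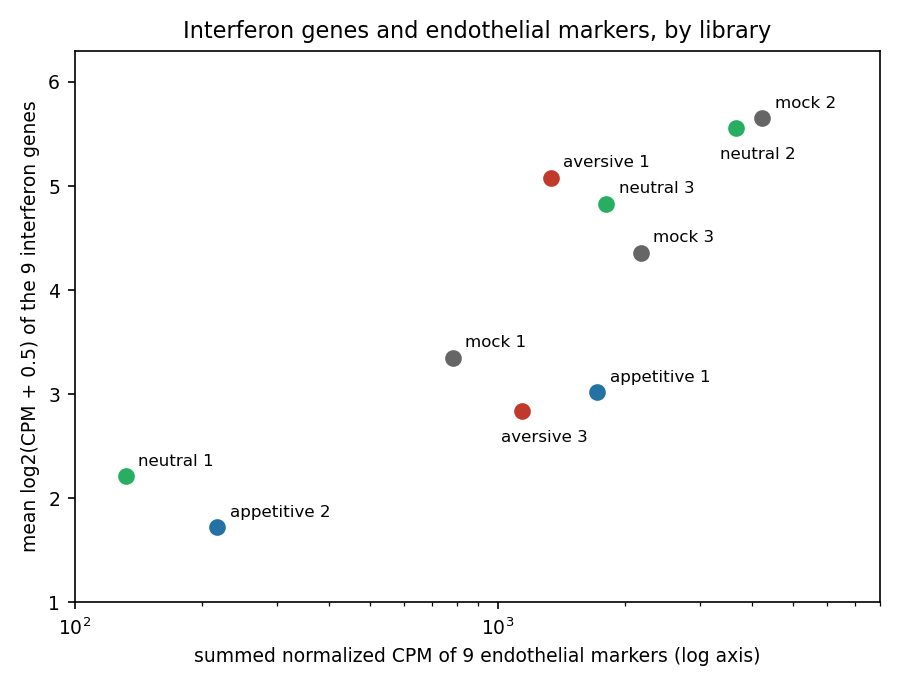
Mean log2(CPM + 0.5) of the 9 interferon genes against the summed normalized CPM of 9 endothelial markers (log axis), 1 point per library, coloured by group. The lowest libraries on both axes are neutral replicate 1 and appetitive replicate 2, and the highest are mock replicate 2 and neutral replicate 2.

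The wider pathway was described from a list of 104 further genes, of which 81 could be tested. Of 21 interferon genes, 18 were at 0 counts in every library. Ifnb1, encoding interferon beta, was read at 4, 32 and 9 counts in the mock libraries and at 0 in all 7 libraries of the aversive, appetitive and neutral groups, where 3 counts correspond to 0.0346 to 0.235 CPM. Its mock levels were 0.159, 1.67 and 0.124 CPM, so that only mock replicate 2 exceeded the highest of these limits. The filter on low counts removed Ifnb1, and without the filter its edgeR adjusted p against mock was 0.629 for aversive, 0.35 for appetitive and 0.124 for neutral. Ifng, encoding interferon gamma, was read at 13 and 15 counts in 2 mock libraries, at 1 in aversive replicate 1 and at 119 in neutral replicate 3, and Ifnk at 1 count in mock replicate 3. Counts of Ifnb1 were thus found in the mock libraries alone, and those of Ifng in 4 libraries of 3 groups.

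Of the receptors, 0 of 5 tested were called in any comparison by edgeR or DESeq2, and 0 had an unadjusted p under 0.05 in edgeR. Over all tested genes the shares were 0% to 6.17% (edgeR) and 9.96% to 29.3% (unadjusted). Over those with a DESeq2 adjusted p, DESeq2 called 8.11% to 31.3%. With 5 genes, counts of 0 say little about the receptors. Ifnar1, the signalling chain of the type I receptor, was at 72.2, 120 and 110 CPM in mock and at 28.0, 159 and 82.6 CPM in neutral. It was at 0.3 and 117 CPM in the aversive libraries and at 0.391 and 17.4 CPM in the appetitive libraries. It was thus below 1 CPM in 1 aversive and 1 appetitive library. Ifnar2, its partner, ran from 16.6 to 134 CPM and never came near 0. Ifngr1, the interferon gamma receptor, ran from 0.860 CPM in appetitive replicate 1 to 232 CPM in mock replicate 3.

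The list held 19 nucleic acid sensors and adaptors, and edgeR called 1 of them, Mavs, the mitochondrial adaptor of the RNA sensors. It was at 0.313 and 0.0524 CPM in appetitive and at 19.2, 28.7 and 42.8 CPM in neutral. In aversive it was at 73.1 and 11.3 CPM, and in mock at 25.8, 14.3 and 38.0 CPM. Mavs was lower in appetitive than in neutral (log2 fold change -7.40, SE 1.66, edgeR adjusted p = 0.0318) and aversive (-7.88, SE 1.72, edgeR adjusted p = 0.0461) and missed the threshold against mock (-7.18, edgeR adjusted p = 0.0521). In these comparisons with neutral and aversive, edgeR called 6.17% and 1.80% of all tested genes. Without any 1 neutral library, Mavs no longer passed against neutral (edgeR adjusted p = 0.0511 to 0.0852). Without aversive replicate 1 or appetitive replicate 2, it no longer passed against aversive (edgeR adjusted p = 0.0514 and 0.0516). Among the most abundant of this role, Irf3 (at 35.6 and 36.4 CPM in appetitive and 68.4 to 160 in neutral), Irf5 and Unc93b1 passed in no comparison. DESeq2 called 8 of the 19 in appetitive against mock, all lower. There it called 26.6% of the tested genes with a DESeq2 adjusted p, in either direction.

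Of 6 kinases and transcription factors, Tyk2, the kinase bound to Ifnar1, was called lower in appetitive than in neutral (edgeR adjusted p = 0.0342, with 6.17% of all tested genes called). It was at 2 and 0 counts in the appetitive libraries and at 14.6, 35.5 and 38.8 CPM in neutral. Its fellow kinase Jak1 was at 138 and 17.5 CPM in appetitive and 35.6 to 92.8 CPM in neutral (edgeR adjusted p = 0.855), and Irf1 and Irf8 also passed in no comparison. The Tyk2 call was lost without any 1 neutral library (edgeR adjusted p = 0.0566 to 0.0894).

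Of 5 tested genes that restrain the pathway, Pias1 and Socs3 were lower in appetitive than in each of the other groups. Over all tested genes, edgeR called 1.98% in appetitive against mock, 6.17% against neutral and 1.80% against aversive. Pias1, an inhibitor of STAT binding to DNA, was at 0.391 and 0.576 CPM in appetitive and between 40.9 and 176 CPM in the other 8 libraries. Its log2 fold change was -7.43 against mock, -7.94 against neutral and -7.79 against aversive (SE 1.11 to 1.15, edgeR adjusted p = 0.0296, 0.0102 and 0.024). Socs3, an inhibitor of JAK kinases, was at 0.391 and 0.838 CPM in appetitive and between 18.4 and 218 CPM elsewhere, with log2 fold changes of -7.75, -5.71 and -7.54 (edgeR adjusted p = 0.0317, 0.0289 and 0.0299). In fits of the compared groups alone, neither gene passed against neutral or aversive (edgeR adjusted p = 0.0951 and 0.711 for Pias1). Without any 1 mock library neither gene passed against mock (edgeR adjusted p = 0.0785 to 0.0937). Without neutral replicate 1, neutral replicate 3 or appetitive replicate 1, Socs3 no longer passed against neutral (edgeR adjusted p = 0.0516 to 0.0734). Socs1 was at 2 and 1 counts in appetitive and at 25.9, 21.4 and 13.1 CPM in neutral (edgeR adjusted p = 0.048), and this call was lost without any 1 of these 5 libraries (edgeR adjusted p = 0.0714 to 0.103). Usp18, itself induced by interferon, was at 48.1 and 0.157 CPM in appetitive and passed in no comparison.

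Of 45 other interferon-stimulated genes tested, edgeR called 1, Ifi35, which binds the protein Nmi. It was at 1 and 2 counts in appetitive and at 53.5, 117 and 84.5 CPM in neutral (edgeR adjusted p = 0.0364, with 6.17% of all tested genes called). Aversive replicate 3, at 0.200 CPM, was as low as the appetitive libraries, and the call was lost without any 1 of the appetitive or neutral libraries (edgeR adjusted p = 0.061 to 0.104). The most abundant of these genes did not pass: Ifi27 was at 192 to 779 CPM in neutral and 64.5 to 152 CPM in mock (log2 fold change 2.52, SE 0.731, edgeR adjusted p = 0.174). Lgals3bp was at 2.35 and 58.1 CPM in appetitive, and Gbp3, a guanylate-binding GTPase, was at 255 and 1.31 CPM there. Like Ifit1, Gbp3 was at its highest in appetitive replicate 1 and near its lowest in appetitive replicate 2.

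In all, edgeR called 2 of 81 pathway genes in appetitive against mock, 6 against neutral and 3 against aversive, each lower in appetitive, beside 1.98%, 6.17% and 1.80% of all tested genes. In the comparisons that leave out the appetitive libraries it called 0, with 9, 8 and 14 genes at an unadjusted p under 0.05 in aversive against mock, neutral against mock and aversive against neutral (9.96%, 13.5% and 19.1% of all tested genes). DESeq2 called 9, 4 and 14 there (8.14%, 8.11% and 16.8% of the tested genes with a DESeq2 adjusted p). These counts out of 81 lay near the shares of all genes. The genes that edgeR called in appetitive were also called by DESeq2 in the same comparisons (adjusted p from 4.48e-14 to 7.77e-06). There DESeq2 called 26.6%, 31.3% and 23.3% of the genes with a DESeq2 adjusted p, against mock, neutral and aversive. The median log2 fold change of the 81 genes in appetitive was -3.15 against mock, -1.71 against neutral and -1.40 against aversive, and over all tested genes it was -1.45, -0.91 and -0.48.

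**Figure D5:**
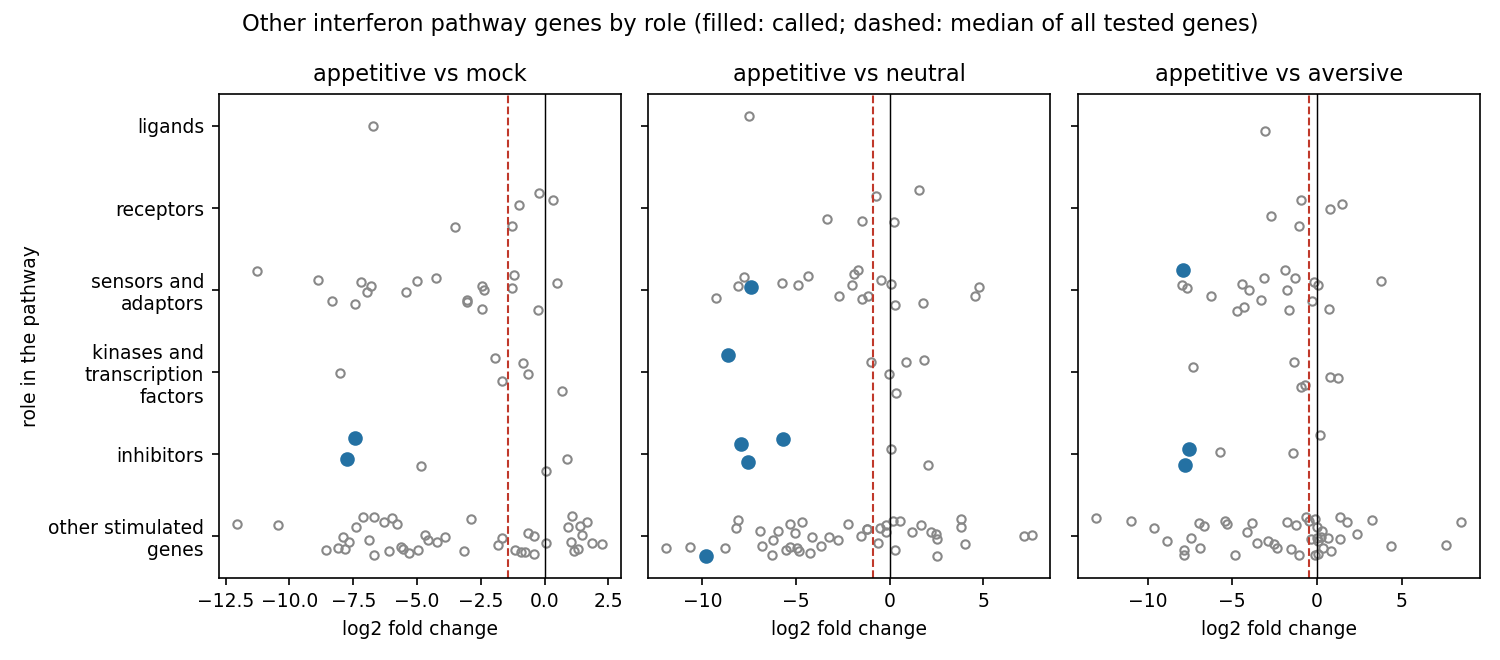
Log2 fold change of the 81 tested pathway genes by role, in appetitive against mock, neutral and aversive (edgeR). Filled points are called at an adjusted p under 0.05, and the dashed line is the median of all 19754 tested genes. The 2, 6 and 3 called genes all lie at -5.71 or lower, and they stand for 6 genes, since the 3 panels share the appetitive libraries.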

How the data were processed

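RNA-seq counts were deposited for 10 libraries. The authors mapped the first 40 bases of each read to mm10 with STAR. They counted reads per Ensembl gene with featureCounts, without strand, and the deposited values are raw counts. The way multi-mapped reads were counted is not given in the sources used here. Groups and replicate numbers came from the labels, positions from GENCODE M21 (53274 of 53379 identifiers matched) and promoters from RefSeq.

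Genes were kept by filterByExpr and tested with edgeR 4.0.16 in R 4.3.3: TMM scaling (factors 0.48 to 1.45) and 1 quasi-likelihood fit of 4 groups to 10 libraries, with Benjamini-Hochberg adjustment over 19754 genes and a threshold of 0.05. P-values are two-sided. The alternatives were DESeq2 1.42.0 (Wald test), DESeq2-style size factors, library size alone, no filter, a fit of the compared groups alone with and without a replicate block, and leaving out each library. The fits were tested on simulated data. The 9 genes, lists and tests were chosen with earlier results of these data known. Named pathway genes are those called in any comparison and the 3 most abundant of each role. Limits from 3 counts cover counting error only. Of the pathway list, 1 gene is not reported here by name but enters the counts.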

Additional observations from a re-analysis of the deposited data

Results flagged for a closer look

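Of the pathway list, 3 genes differed between the appetitive and aversive groups in the direct edgeR test, all lower in appetitive: Mavs (log2 fold change -7.88, adjusted p = 0.0461), Socs3 (-7.54, adjusted p = 0.0299) and Pias1 (-7.79, adjusted p = 0.024). The same test called 1.80% of all tested genes.

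In 3 of the 9 interferon genes, every library of one group lay above the mock mean of log2(CPM + 0.5) and every library of another lay below it. The share of all tested genes with such a split was not computed, so the count says nothing particular about the 9 genes. Ifit3 was above it by 1.83 and 2.30 in the appetitive libraries and stood at -1.60 and -1.28 in the aversive libraries. Irf9 stood at -5.35 and -5.20 in the appetitive libraries and at 0.43, 0.46 and 0.24 in the neutral libraries. Bst2 stood at -0.62 and -0.79 in the aversive libraries and at 2.44, 1.65 and 2.46 in the neutral libraries. In the direct comparison of the groups, edgeR gave an adjusted p of 0.393 for Ifit3, 0.0605 for Irf9 and 0.195 for Bst2, none of which passed. No group had the 4 libraries needed to look for a single outlying library.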

How the results depend on the processing

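Comparisons are given in the order appetitive against mock, neutral and aversive, then aversive against mock, neutral against mock and aversive against neutral. Of the 9 genes, where edgeR called 0 in each, DESeq2 called 3, 3, 3, 0, 0 and 1, edgeR without a filter called 2, 3, 2, 0, 0 and 0, and edgeR on the compared groups alone called 3 against mock and 0 elsewhere. Leaving out 1 library gave 0 in every case but appetitive against aversive, where it gave 0 to 2 (without aversive replicate 3 both Irf9, at -6.83, and Irf7, at -8.03, were called). Of the pathway list, where edgeR called 2, 6, 3, 0, 0 and 0, DESeq2 called 26, 23, 18, 9, 4 and 14, edgeR without a filter 8, 10, 8, 0, 3 and 6, and edgeR on the compared groups alone 21, 0, 0, 0, 0 and 0. Leaving out 1 library gave 0 to 6 against mock (0 without any 1 mock library), 1 to 9 against neutral (1 or 2 without any 1 neutral library) and 4 to 7 against aversive. Both other scalings kept the calls of the 9 genes at 0 and those of the pathway list within 1.5 times. They moved the median of all genes in appetitive against mock by 0.28 (DESeq2-style size factors) and -0.48 (library size alone). Of the 33 fold changes examined one by one, those that reversed were Irf9 (0.35) and Irf7 (6.23) in appetitive against aversive without aversive replicate 1, and Ifit1 in appetitive against mock (-0.26 with library size alone, -2.97 with the block, -9.14 without appetitive replicate 1, up to 1.67 without any other single library). Over all 54 values of the 9 genes, the sign changed in 6 under DESeq2, 6 under the first scaling, 13 under the second (the largest at a size of 1.31) and 5 without a filter. It changed in 5 of 52 with the compared groups alone, in 15 of 45 with the block and in 53 of 270 values with 1 library left out. Causes were not tested.

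The replicate number as a block, in a fit of the compared groups, left 0 of the 9 genes called in each comparison and 0 of the pathway list, including 0 against mock and 0 against neutral in appetitive. The correlation of deviations from the group means was -0.06 to 0.19 between libraries of the same number and -0.16 to 0.15 between those of different numbers. In a group of 2 libraries the deviations mirror each other. These values therefore cannot settle whether the numbers pair the libraries. No paired analysis was possible because appetitive and aversive share only 1 replicate number, for that comparison. A gene at 3 counts or fewer in both appetitive libraries, such as Tyk2, has no well-defined fold change there.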
